A study of Mus musculus with 2 samples.

Results

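Mature oligodendrocytes of the mouse striatum that carried no RNA of the injury-response genes C4b and Serpina3n, nor of the subtype genes Klk6 and Il33, were compared between the side of a stroke and the opposite side. The barcodes were selected on their own counts. They had at least 500 detected genes, at most 15% of UMIs (unique molecular identifiers, each standing for 1 captured RNA molecule) from mitochondrial genes, at least 40 UMIs of the myelin genes Mobp, Mog and Mal per 10000 UMIs, and 0 UMIs of C4b, Serpina3n, Klk6 and Il33. The rule chose 466 ipsilateral and 326 contralateral barcodes, 792 of the 4418 that passed the gene and mitochondrial filters. The ipsilateral library came from the lateral striatum on the side of a middle cerebral artery occlusion (MCAO), the contralateral library from the opposite hemisphere. Male C57/BL6 mice had the artery closed for 60 minutes on postnatal day 10, followed by 2 weeks of reperfusion. The label gives no genetic change, and animals of both groups had undergone the occlusion, so the contralateral side is not tissue of an unoperated animal. Striata of 3 animals were pooled per library and sorted for the surface antigens A2B5 and O4, and each side is 1 library with no replicate. Whether the same animals gave both sides is not stated.

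Mature oligodendrocytes make the myelin sheath from proteins such as Mbp, Mag and Opalin, and from lipids that they synthesise themselves. After demyelination, stroke or inflammation some of them take up a disease-associated programme of which C4b and Serpina3n are leading genes, together with the presentation genes of MHC class I. MHC class I molecules are a heavy chain, such as H2-D1 or H2-K1, paired with the light chain B2m, and interferons are known to raise their expression. Oligodendrocyte precursors, which carry Pdgfra, pass through a committed stage marked by Gpr17 before they mature.

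The ipsilateral library held 54788795 UMIs in 2775 barcodes and the contralateral library 36063045 UMIs in 2066 barcodes, and no barcode was shared. Most of the chosen barcodes were deep, with medians of 27951 UMIs ipsilaterally and 27482 contralaterally, and they summed to 12599583 and 9579828 UMIs. Shallow ones were more frequent ipsilaterally: the 5th percentile was 2325 UMIs ipsilaterally and 11710.5 contralaterally. A total of 54 ipsilateral and 13 contralateral barcodes had under 10000 UMIs, and a shallow barcode meets the rule of 0 UMIs more easily. The chosen barcodes were 43.7% of the 1067 ipsilateral mature barcodes (exact binomial 95% interval 40.7 to 46.7) and 54.5% of the 598 contralateral ones (50.4 to 58.6). The rule therefore took a different share from each side. At the median depth, 0 UMIs of an excluded gene still allowed a level of up to 1.07 per 10000 UMIs ipsilaterally and 1.09 contralaterally, so 0 UMIs do not show that the gene was off. Of the mature barcodes outside the rule, 194 of 601 ipsilateral and 117 of 272 contralateral ones carried exactly 1 UMI of the 4 excluded genes. Just outside the myelin threshold, at 30 to 40 UMIs per 10000, lay 1 ipsilateral barcode and 0 contralateral barcodes with no UMI of the 4 genes. Just inside it, at 40 to 50, lay 4 ipsilateral barcodes, with a median of 1253 UMIs, and 0 contralateral barcodes.

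The name mature oligodendrocyte held on the markers that the rule did not use. Opalin, a myelin membrane protein, was 1277 CPM (the gene's summed UMIs scaled to a common library total) in ipsilateral barcodes and 1204 CPM in contralateral barcodes. Mag, the myelin-associated glycoprotein, was 5059 CPM and 4080 CPM. At least 1 UMI of Opalin was found in 444 of 466 ipsilateral and 321 of 326 contralateral barcodes. In neuroblast barcodes, chosen on Dcx, Sox11 and Dlx2, Opalin was 16.2 CPM ipsilaterally and 12.2 CPM contralaterally.

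Few genes differed between the sides by much. A gene was tested if it had at least 50 summed UMIs, and counted as higher or lower if its ratio of ipsilateral over contralateral CPM, after adding 5 CPM to both, was past 1.5-fold. Of 10402 genes so tested, leaving out the 7 genes of the rule, 27 were higher ipsilaterally (0.26%) and 120 were lower (1.15%). The median log2 ratio of all tested genes was -0.05, and 38.2% of them lay above 0, which is the background for the counts above 0 given below for gene lists. Among the genes that the naming rule chose, those at least 1.5-fold higher included MHC class I, interferon-inducible and STAT3-linked genes, and those at least 1.5-fold lower included genes of oligodendrocyte precursors. Over all tested genes, the largest ratio was that of the predicted gene Gm10076 (1.44) and the smallest were those of Xist (-1.82) and Rps27rt (-1.31), singled out after their values were seen. With 1 library a side there is no test: intervals are exact Poisson or binomial and cover counting error only, and animals, dissections and libraries cannot be told apart from the side. Fewer cells of a kind and less RNA per cell cannot be told apart in sums over barcodes, so shares of barcodes are given beside them.

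MHC class I genes stood higher on the ipsilateral side although C4b and Serpina3n had no UMI. H2-D1, a heavy chain, was 78.2 CPM in ipsilateral barcodes (95% interval 73.4 to 83.2) and 29.3 CPM in contralateral ones (26.0 to 33.0), a log2 ratio of 1.28. B2m, the light chain, was 64.0 CPM (59.6 to 68.5) ipsilaterally and 28.9 CPM (25.6 to 32.5) contralaterally, a log2 ratio of 1.02. H2-K1, another heavy chain, was 19.0 CPM (16.7 to 21.6) on the ipsilateral and 9.92 CPM (8.02 to 12.1) on the contralateral side, with a log2 ratio of 0.69. The 2 intervals did not overlap for any of the 3 genes. H2-D1 and H2-K1 share sequence: 27.6% of the 31-base words of H2-D1 and 20.3% of those of H2-K1 occur in transcripts of other genes. Some reads of these genes may therefore fit several genes, whereas B2m shares no such word.

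Of 22 genes on the MHC class I list, 12 were tested, 9 lay above a log2 ratio of 0 and 3 were at least 1.5-fold higher, with a median of 0.20, against -0.05 for all tested genes. Its peptide-loading member Tapbp, which bridges heavy chains to the peptide transporter, was 6.03 CPM ipsilaterally and 3.34 CPM contralaterally (0.40). No gene of the list was 1.5-fold lower. None of the 7 MHC class II genes reached 50 UMIs. The 15 markers of microglia and macrophages, which also express MHC class I, summed to 23.6 CPM in ipsilateral and 21.2 CPM in contralateral barcodes. No barcode of either side had 10 or more of their UMIs per 10000, with 3 of the 15 at 0 UMIs ipsilaterally (Cx3cr1, Tmem119 and Ptprc) and 7 contralaterally (C1qa, Csf1r, Cx3cr1, Fcer1g, Trem2, Aif1 and Ptprc). The 10 endothelial markers summed to 22.7 CPM ipsilaterally and 32.3 CPM contralaterally.

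The promoters of the presentation genes and of Socs3 are shown because the 3 presentation genes are those of their list past 1.5-fold, Socs3 had the largest ratio of the STAT3 list, and all were higher on the same side. Each run is the 250 bases before the gene's start in the RefSeq promoter table on GRCm38.p6, read 5′ to 3′ on the gene's strand. H2-D1 is at chr17:35262844-35263093 on the plus strand, B2m at chr2:122147437-122147686 on the plus strand, H2-K1, the first of 2 promoters listed, at chr17:34000348-34000597 on the minus strand and Socs3 at chr11:117969367-117969616 on the minus strand. Capitals mark letters that match a motif searched on both strands: GAAANNGAA, a core bound by interferon regulatory factors, TTCNNNGAA, the core bound by STAT factors, and GGGANTTCC, a form of the NF-kB site.
H2-D1: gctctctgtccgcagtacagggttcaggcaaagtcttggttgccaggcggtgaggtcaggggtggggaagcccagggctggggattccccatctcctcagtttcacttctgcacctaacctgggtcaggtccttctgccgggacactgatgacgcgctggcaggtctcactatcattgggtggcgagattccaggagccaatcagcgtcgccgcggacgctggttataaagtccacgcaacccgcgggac
B2m: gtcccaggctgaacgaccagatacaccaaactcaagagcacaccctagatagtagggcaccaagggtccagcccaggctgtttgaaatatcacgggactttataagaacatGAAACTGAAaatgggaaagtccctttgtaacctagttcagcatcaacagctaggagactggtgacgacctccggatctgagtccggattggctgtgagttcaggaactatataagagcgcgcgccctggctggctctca
H2-K1: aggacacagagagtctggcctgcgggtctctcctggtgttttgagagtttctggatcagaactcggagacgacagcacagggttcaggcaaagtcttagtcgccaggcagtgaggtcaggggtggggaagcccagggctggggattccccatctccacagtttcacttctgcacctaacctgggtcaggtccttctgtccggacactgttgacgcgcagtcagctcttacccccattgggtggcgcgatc
Socs3: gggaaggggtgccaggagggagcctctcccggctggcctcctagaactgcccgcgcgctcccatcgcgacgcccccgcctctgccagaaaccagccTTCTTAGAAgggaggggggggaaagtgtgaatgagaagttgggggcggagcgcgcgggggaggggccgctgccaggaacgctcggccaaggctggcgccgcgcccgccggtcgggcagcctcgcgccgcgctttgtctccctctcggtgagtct
B2m held the interferon regulatory factor core, from base 112 to base 120 of the run, and Socs3 the STAT core, from base 97 to base 105. Neither H2 gene held any of the 3 motifs as spelled here, and no run held GGGANTTCC. The search took these spellings only, so a site for the same factors that is spelled otherwise would stay unmarked. A run without capitals is therefore not shown to lack such sites. Among 32817 RefSeq promoters cut to the same length, 7.12% held GAAANNGAA, 7.01% held TTCNNNGAA and 1.43% held GGGANTTCC. Cebpd, whose ratio was next to that of Socs3 on the STAT3 list, is named only.

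Interferon-inducible genes were higher through a few members. Ifi27, an interferon-inducible mitochondrial protein, was 172 CPM (165 to 179) in ipsilateral barcodes and 89.5 CPM (83.6 to 95.7) in contralateral ones, a log2 ratio of 0.90. Ifi27l2a, a related small protein, had the largest ratio of the named genes, at 26.0 CPM (23.3 to 29.0) ipsilaterally and 6.99 CPM (5.42 to 8.88) contralaterally (1.37). Its RNA was concentrated: 42 of 466 ipsilateral and 7 of 326 contralateral barcodes had a UMI. A single barcode held 24.4% of its ipsilateral UMIs, and another 71.6% of its contralateral UMIs. With the largest barcode of each side left out the log2 ratio of Ifi27l2a was 1.82. Usp18, a feedback inhibitor of interferon signalling, was 5.56 CPM ipsilaterally and 2.92 CPM contralaterally (0.41). Of 41 genes on the interferon list only 9 reached 50 UMIs, of which 2 were at least 1.5-fold higher and 0 lower, with a median of 0.24.

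Genes linked to STAT3 and cytokine signalling were higher as well. Socs3, a STAT3 target that inhibits cytokine receptors, was 83.5 CPM (78.5 to 88.7) in ipsilateral barcodes and 37.6 CPM (33.8 to 41.7) in contralateral ones, a log2 ratio of 1.06. Cebpd, a transcription factor of the acute phase response, was 32.0 CPM (28.9 to 35.3) on the ipsilateral and 14.3 CPM (12.0 to 16.9) on the contralateral side, with a log2 ratio of 0.94. Junb, an AP-1 transcription factor, was 843 CPM ipsilaterally and 504 CPM contralaterally (0.74), and Gadd45g, a stress-inducible growth arrest protein, 48.3 CPM and 27.6 CPM (0.71). Of 13 tested genes on the STAT3 list 5 were at least 1.5-fold higher and 0 lower, with a median of 0.16. Stat3 itself, its receptor subunit Il6st and the kinase Jak1 are on that list and lay within 1.5-fold. Immediate early genes, the fast transcriptional response that tissue dissociation also raises, had 21 of 27 above 0 with 3 at least 1.5-fold higher and a median of 0.17. The 3 were Junb, Gadd45g and Gadd45b, which are also among the 5 of the STAT3 list.

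Metallothioneins and a few signalling genes were among the other genes with large ratios. The metal-binding proteins Mt2 and Mt1 were 132 CPM and 1616 CPM in ipsilateral barcodes, against 65.7 CPM and 999 CPM in contralateral barcodes, log2 ratios of 0.95 and 0.69. Astrocytes also express these genes, and the 10 astrocyte markers summed to 105 CPM ipsilaterally and 139 CPM contralaterally; their part in the difference was not tested. Bambi, a pseudoreceptor that dampens TGF-beta signalling, was 20.6 CPM (18.1 to 23.2) on the ipsilateral and 6.89 CPM (5.33 to 8.77) on the contralateral side, with a log2 ratio of 1.10. Id3, an inhibitor of helix-loop-helix factors, was 30.5 CPM and 15.8 CPM (0.77), and the protease Adamts1 22.6 CPM and 10.3 CPM (0.85). Gfod2 was 29.5 CPM and 14.0 CPM (0.86), but 38.1% of its contralateral and 16.7% of its ipsilateral UMIs came from 1 barcode. Gstp1, a glutathione transferase, was 791 CPM and 496 CPM (0.67). Of its 31-base words 57.8% occur in Gstp2, and of those in its last 500 bases 84.0% occur in another gene. On the list of disease-associated oligodendrocyte genes, from which the genes of the rule were left out, 23 of 30 tested genes lay above 0 and 9 were at least 1.5-fold higher, with a median of 0.16; these were H2-D1, B2m, H2-K1, Socs3, Ifi27, Ifi27l2a, Mt1, Mt2 and Gstp1, all described above.

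**Figure D1:**
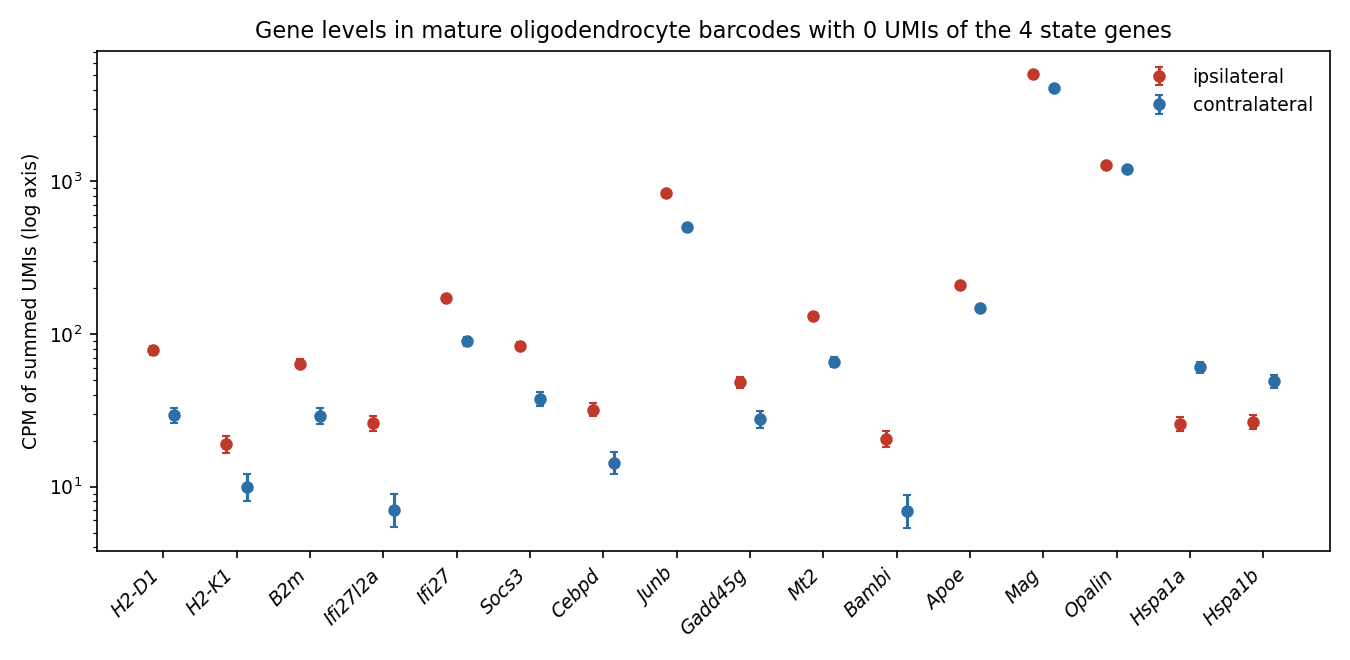
Summed level of 16 genes in the chosen barcodes, in CPM on a log axis, ipsilateral left of contralateral, with exact Poisson 95% intervals (counting error only). H2-D1 was 78.2 CPM ipsilaterally and 29.3 CPM contralaterally, whereas Hspa1a was 25.7 CPM and 60.8 CPM.

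Shares of barcodes with a UMI were compared at equal depth. Each barcode was thinned at random to 10000 UMIs, which left out 54 ipsilateral and 13 contralateral barcodes that were shallower. At least 1 UMI of H2-D1 was then found in 34.7% of 412 ipsilateral barcodes (exact interval 30.1 to 39.5) and in 12.5% of 313 contralateral ones (9.01 to 16.6). A single thinning adds its own error, so the share expected over all possible thinnings was also computed, after the drawn shares had been seen. For H2-D1 it was 32.1% ipsilaterally and 14.8% contralaterally, with an SD between draws of 1.48 and 1.35 percentage points. Without thinning, the shares for H2-D1 were 49.1% and 28.5%. Neuroblast barcodes, another cell type of the same libraries, gave 27.3% of 326 ipsilateral and 24.1% of 336 contralateral barcodes for H2-D1 in the draw, at median depths of 11751 and 11719.5 UMIs before thinning. The share expected in neuroblasts was 27.3% ipsilaterally and 20.6% contralaterally. The contralateral share of H2-D1 in mature barcodes lay below that in neuroblasts and is not read as expression. The ipsilateral interval overlapped that of neuroblasts (22.5 to 32.5), and how much of either share is free RNA was not tested.

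For B2m the drawn shares were 30.3% ipsilaterally and 22% contralaterally in mature barcodes, with intervals that overlapped. The shares of B2m expected over all thinnings were 35.6% and 19.9%, with SDs between draws of 1.67 and 1.69 percentage points, so the draw understated the difference. In neuroblasts the expected shares of B2m were 15.9% and 10.3%. For Socs3, expected shares were 29.4% ipsilaterally and 17.1% contralaterally in mature barcodes, against 25.7% and 19.4% in neuroblasts. For Cebpd they were 13.8% and 7.13%, against 14.0% and 12.0% in neuroblasts, so that neither share of Cebpd stood above the neuroblast level. For Ifi27 they were 65.7% and 42.5%, against 38.1% and 24.0%. Ifi27l2a had expected shares of 6.23% and 1.29% in mature barcodes, and of 1.08% and 0.137% in neuroblasts.

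Another 5 genes at least 1.5-fold higher by summed UMIs also had higher expected shares ipsilaterally. Expected shares were 9.13% ipsilaterally and 7.70% contralaterally for Gfod2, and 11.2% and 7.38% for Adamts1. They were 19.1% and 13.8% for Gadd45g, 9.55% and 5.93% for Bambi, and 14.2% and 8.15% for H2-K1. For all 5 genes, as for B2m, the exact intervals of the drawn shares overlapped between the sides. In neuroblasts the expected shares of Bambi were 12.7% ipsilaterally and 12.7% contralaterally, so neither share of Bambi stood above the neuroblast level. For Adamts1 they were 3.11% and 2.26%, below those in mature barcodes.

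**Figure D2:**
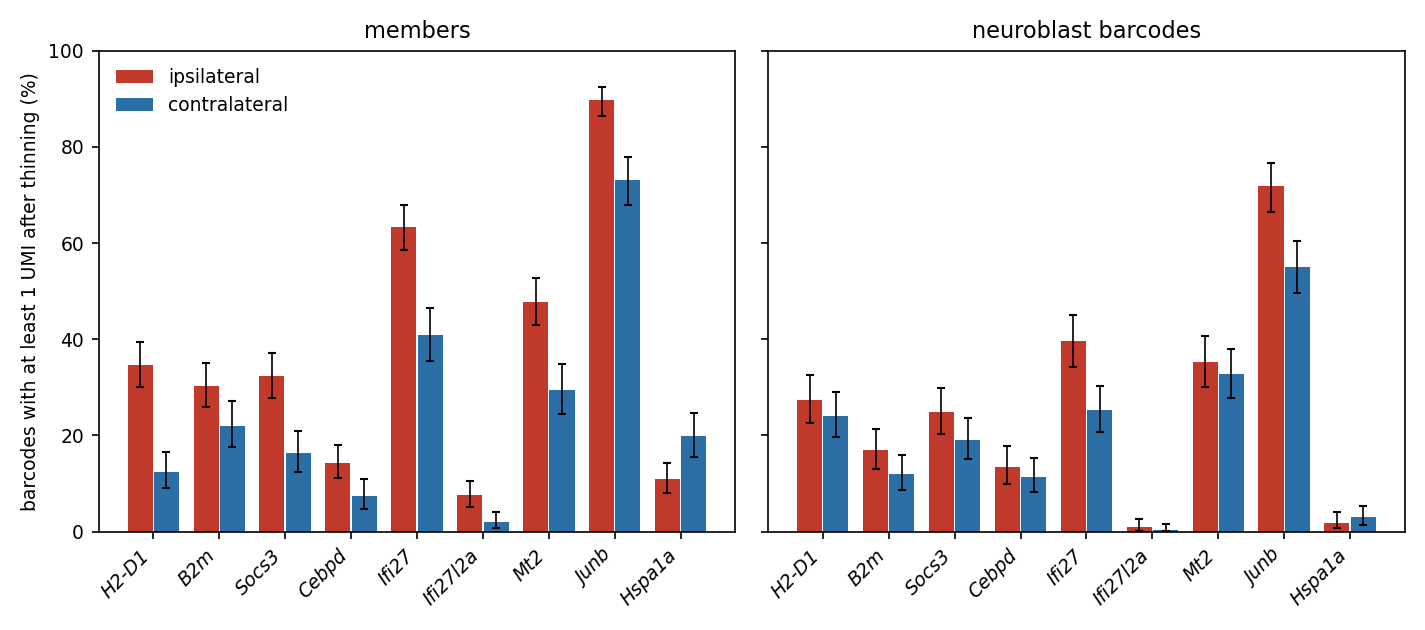
Share of barcodes with at least 1 UMI of a gene after thinning to 10000 UMIs, in percent, for the chosen mature barcodes (members, left panel) and neuroblast barcodes (right panel), ipsilateral bars left of contralateral ones, with exact binomial 95% intervals of a single thinning. H2-D1 was found in 34.7% of ipsilateral and 12.5% of contralateral mature barcodes, and in 27.3% and 24.1% of neuroblasts.

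Barcodes with a UMI of several response genes were more frequent ipsilaterally. Of the 7 genes H2-D1, H2-K1, B2m, Socs3, Cebpd, Ifi27 and Ifi27l2a, at least 3 had a UMI after thinning in 30.8% of ipsilateral barcodes (26.4 to 35.5) and in 8.63% of contralateral ones (5.76 to 12.3). Over all thinnings the expected shares were 30.9% and 10.2%. In neuroblasts the drawn shares were 11.7% and 7.74%. At the other end, none of the 7 genes had a UMI in 11.7% of ipsilateral and 33.9% of contralateral mature barcodes. The 7 genes were chosen with earlier results of these data known, and the shares are a description. Each of the 7 was also higher ipsilaterally on its own, from which a larger share with at least 3 can follow. Whether the genes occurred together beyond their single shares was not tested.

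Some of these genes were also higher ipsilaterally in other cell types. Junb had a log2 ratio of 0.74 in the chosen mature barcodes and of 0.79 in neuroblasts, Ifi27 0.90 and 0.85, and Socs3 1.06 and 0.83. Socs3 was also higher in ipsilateral endothelial barcodes, chosen on Cldn5, Flt1 and Itm2a, with a ratio of 0.72, and Gstp1 had a ratio of 1.02 there. Other genes had smaller ratios in those cell types than in the mature barcodes. H2-D1 had ratios of 0.31 in neuroblasts and 0.43 in endothelial barcodes, B2m 0.40 and 0.09, Mt2 0.06 and 0.11, Cebpd 0.05 and 0.20, and Bambi 0.06 and -0.27. The median of all tested genes was 0.04 in neuroblasts and 0.02 in endothelial barcodes. Markers of other cells also moved in these classes. In neuroblasts the myelin genes had a median of 0.53, with 13 of 28 at least 1.5-fold higher, against 128 of all 11065 genes tested there (1.16%). Myelin genes summed to 2916 CPM in ipsilateral and 2044 CPM in contralateral neuroblasts, and the precursor markers had a median of 0.62. In endothelial barcodes the 10 mural and fibroblast markers summed to 628 CPM ipsilaterally and 63.5 CPM contralaterally, and the 10 T cell and blood markers to 0.853 CPM and 8614 CPM. Their part in the ratios, and whether the ratios differ between cell types, was not tested.

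Mature barcodes with a UMI of C4b or Serpina3n, 361 ipsilateral and 67 contralateral, had larger ratios for most of these genes. In them H2-D1 was 243 CPM ipsilaterally and 49.9 CPM contralaterally (2.17), B2m 144 CPM and 39.2 CPM (1.75), and Socs3 247 CPM and 53.2 CPM (2.11). Apoe, a lipid carrier of glia, was 843 CPM and 324 CPM there (1.36), against 210 CPM and 147 CPM in the barcodes without any UMI of the 4 genes (0.50). Mt2 and Bambi had smaller ratios there, of 0.27 and 0.77 in the barcodes with C4b or Serpina3n, against 0.95 and 1.10 in those without. At least 3 of the 7 response genes had a UMI in 60.7% of ipsilateral and 17.9% of contralateral barcodes with C4b or Serpina3n. The sides of this class differed in the genes that define it. C4b had 1967 UMIs in 289 ipsilateral and 65 UMIs in 55 contralateral mature barcodes. Serpina3n had 1270 UMIs in 215 ipsilateral and 28 UMIs in 15 contralateral ones. The part of these unequal C4b and Serpina3n levels in the larger ratios was not tested. Barcodes with Klk6 but neither of those genes, 168 ipsilateral and 120 contralateral, had ratios of 2.10 for H2-D1, 1.56 for B2m and 0.06 for Cebpd. Those with Il33 but neither, 88 and 97, had 1.38 for H2-D1, 1.30 for B2m and 0.82 for Cebpd. The size of these classes and their ratios were not tested against each other.

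**Figure D3:**
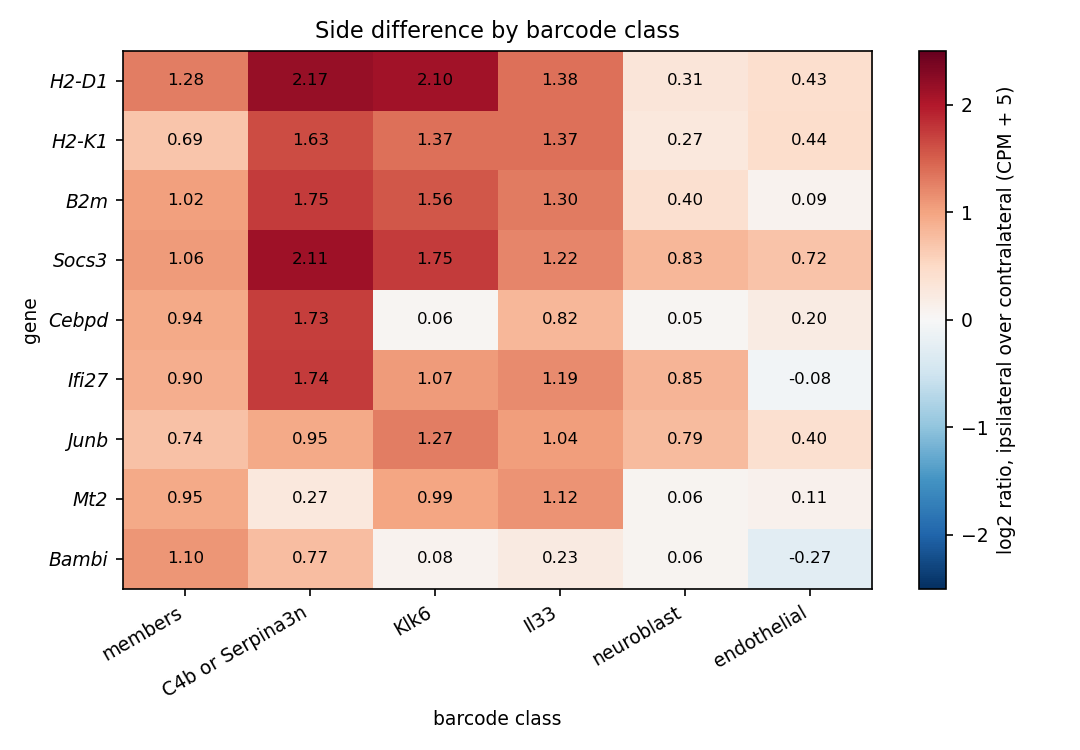
Log2 ratio of ipsilateral over contralateral CPM, after adding 5 CPM, for 9 genes (rows) in 6 barcode classes (columns): the mature barcodes without a UMI of the 4 genes (members), mature barcodes with C4b or Serpina3n, with Klk6 and with Il33 but neither of those, neuroblasts and endothelial barcodes. H2-D1 was 1.28 in members, 2.17 with C4b or Serpina3n and 0.31 in neuroblasts.

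Genes of oligodendrocyte precursors were among those lower on the ipsilateral side, and their RNA sat in few barcodes. Ptprz1, a receptor phosphatase of precursors, was 75.9 CPM in ipsilateral barcodes and 178 CPM in contralateral ones, a log2 ratio of -1.18. Gpr17, the receptor of the committed stage, was 68.2 CPM and 150 CPM (-1.08), and the proteoglycan Bcan 48.0 CPM and 96.1 CPM (-0.93). All 10 precursor markers lay below 0, with 8 at least 1.5-fold lower and a median of -0.72. A total of 32 ipsilateral barcodes (6.87%, interval 4.74 to 9.56) and 37 contralateral barcodes (11.3%, 8.12 to 15.3) carried at least 10 UMIs of those markers per 10000. They held 90.1% of the ipsilateral and 95% of the contralateral UMIs of Ptprz1, and 64.5% and 86.3% of those of Gpr17.

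By median these barcodes were deeper and had a smaller share of myelin RNA among their UMIs than the rest. Their median depth was 41240 UMIs ipsilaterally and 43356 UMIs contralaterally, against 27735.5 and 26875 in the barcodes under 10. Some were shallow, more so ipsilaterally. The lower quartile of depth was 6596.75 UMIs ipsilaterally, against 21969.5 in the barcodes under 10, and 34875 contralaterally, against 22023. The 5th percentiles were 822.5 and 820.4 UMIs, a depth at which a few marker UMIs reach 10 per 10000. The median of Mobp, Mog and Mal in the barcodes at or over 10 was 123 and 144 UMIs per 10000, against 216 and 226. Scrublet, which scores barcodes against simulated doublets, called 20 of the 32 ipsilateral ones and 2 of the 37 contralateral ones. Its score threshold differed between the libraries, at 0.154 ipsilaterally and 0.274 contralaterally, while the median score of these barcodes was 0.185 and 0.165. Whether they are doublets or cells between stages was not tested.

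**Figure D4:**
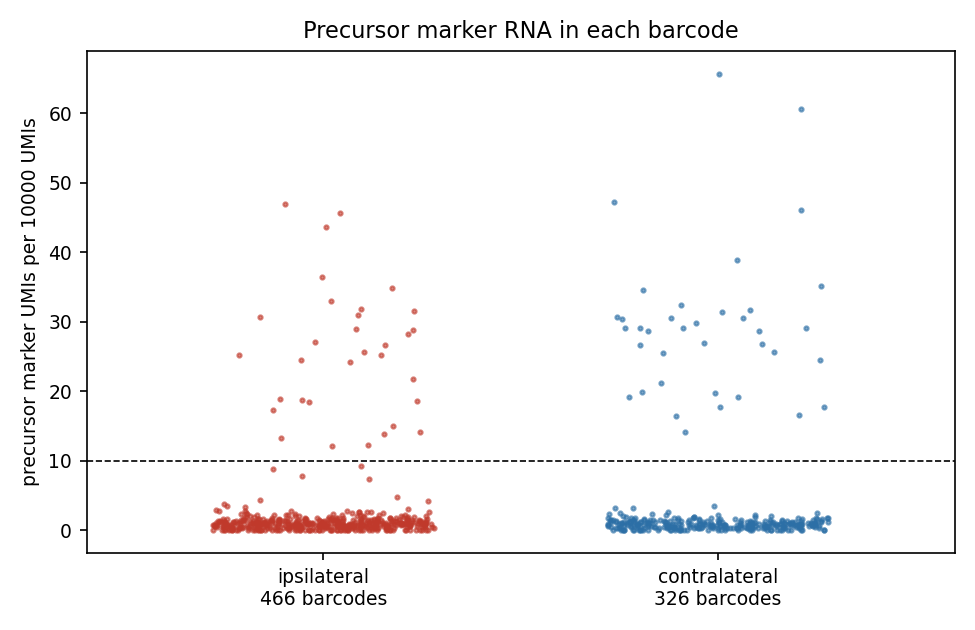
UMIs of 10 precursor markers per 10000 UMIs in each chosen barcode, ipsilateral left and contralateral right, 1 point per barcode with random sideways spread; the dashed line is at 10. Of 466 ipsilateral barcodes 32 lay at or above the line, and of 326 contralateral ones 37.

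The sides were also compared without the barcodes with precursor RNA. Of 9805 genes then tested, 39 were at least 1.5-fold higher (0.398%) and 23 lower (0.235%). Of the 27 higher genes 24 were among the 39, which is 88.9% of the first list and 61.5% of the second. Of the 120 lower genes 18 were among the 23, which is 15.0% of the first list and 78.3% of the second. Another 49 of the 120 no longer had 50 UMIs and were not tested, and 21 had a ratio above 0. The ratio of Gpr17 became 0.07, that of Marcks, a membrane-cytoskeleton protein, 0.28, against -0.89 with all barcodes. As these barcodes were left out for their precursor markers, Gpr17 among them, the loss of those markers' difference was fixed by the choice. H2-D1 stood at 1.36 without these barcodes, Socs3 at 1.41, Cebpd at 1.06, Ifi27 at 1.08 and H2-K1 at 0.86. These barcodes held 19.9% of the ipsilateral and 50.9% of the contralateral UMIs of Apoe. Without them Apoe was 185 CPM ipsilaterally and 87.7 CPM contralaterally, a log2 ratio of 1.03. Its shares expected over all thinnings were then 48.1% and 35.1%. In neuroblasts they were 68.9% and 63.1%, so neither share of Apoe stood above the neuroblast level. At least 3 of the 7 response genes had a UMI in 29.0% of the ipsilateral and 6.45% of the contralateral barcodes left. This split was made after the data were seen.

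The heat shock genes Hspa1a and Hspa1b were lower ipsilaterally with and without those barcodes. Hspa1a, an inducible HSP70 chaperone, was 25.7 CPM (23 to 28.7) in ipsilateral barcodes and 60.8 CPM (55.9 to 65.9) in contralateral ones, a log2 ratio of -1.10, or -1.31 without the barcodes with precursor RNA. Hspa1b, its near copy, was 26.5 CPM and 48.9 CPM (-0.77). At least 1 UMI of Hspa1a was found in 10.9% of ipsilateral and 19.8% of contralateral barcodes after thinning, and in 1.84% and 2.98% of neuroblasts. Of the 31-base words of Hspa1a transcripts, 63.8% occur in Hspa1b. Within the last 500 bases of Hspa1a, where 3′ reads fall, 0% occur in another gene. The rest of the list did not follow: 22 chaperone genes had a median of -0.04, with 2 at least 1.5-fold lower. Cacng7, a subunit of calcium channel and glutamate receptor complexes, was 10.0 CPM and 24.1 CPM (-0.96). Its ratio was -0.88 with C4b or Serpina3n and -0.47 in neuroblasts.

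Myelin genes were close to even. Mbp, which compacts the sheath, was 6671 CPM in ipsilateral barcodes and 5840 CPM in contralateral ones (0.19). Mag had a ratio of 0.31 and Opalin of 0.08. Of 29 myelin genes tested 24 lay above 0 and 0 were past 1.5-fold in either direction, with a median of 0.09 (order-statistic interval 0.02 to 0.19). Without the barcodes with precursor RNA 20 of 29 lay above 0. Of all 9805 genes tested without those barcodes 47.4% lay above 0, with a median of -0.009. Among stage genes, the 29 of the late mature stage had a median of 0.04 and 0 past 1.5-fold. For the newly formed stage, 24 genes gave a median of -0.20 (-0.35 to -0.07), with 3 at least 1.5-fold lower, and the median was 0.05 without the barcodes with precursor RNA. Sterol synthesis, which supplies myelin cholesterol, had 11 of 24 genes above 0, a median of -0.05 and 0 past 1.5-fold.

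**Figure D5:**
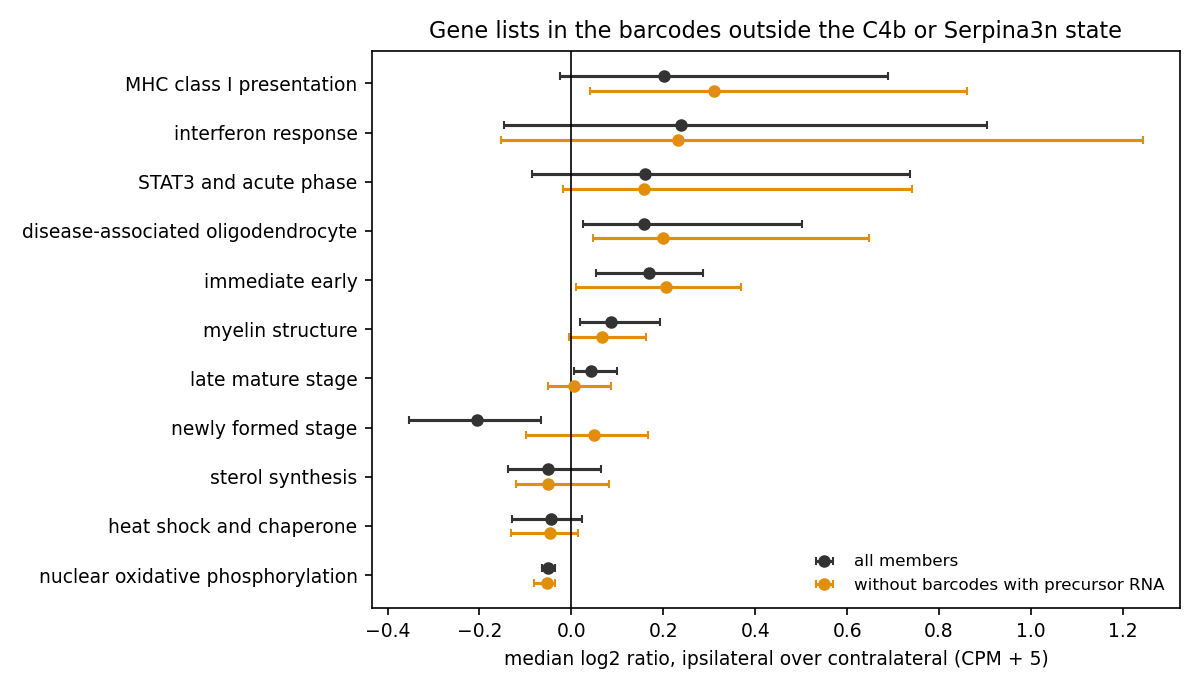
Median log2 ratio of ipsilateral over contralateral CPM, after adding 5 CPM, for 11 gene lists, with all chosen barcodes (dark, upper point) and without those with precursor RNA (orange, lower point). Bars are order-statistic 95% intervals over the genes of a list, which are not replicates; the newly formed stage was -0.20 with all barcodes and 0.05 without.

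Other programmes moved little. The 43 nuclear genes of oxidative phosphorylation had a median of -0.05, equal to that of all genes, with 35 below 0 and 0 past 1.5-fold. Fatty acid and galactolipid synthesis (26 genes) had a median of 0.01 and the integrated stress response (19 genes) of 0.05, with 0 genes past 1.5-fold in either list. Hypoxia and glycolysis (27 genes) had a median of 0.04 and lysosomal genes (25 genes) of 0.04, again with 0 past 1.5-fold. Genes of lipid uptake and export had a median of 0.00 over 17 genes, with Lrp1 and Fabp7 at least 1.5-fold lower. Lrp1, a lipoprotein receptor, was 14.9 CPM ipsilaterally and 29.1 CPM contralaterally, with 85.6% and 96.4% of its UMIs in the barcodes with precursor RNA.

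Response genes were also followed along maturation. Barcodes were split into tertiles by their share of late mature genes, at 420 and 499 UMIs per 10000, with 146, 156 and 164 ipsilateral and 118, 108 and 100 contralateral barcodes. The ratio of H2-D1 was 1.26 in the lowest, 1.67 in the middle and 1.06 in the highest tertile, and that of B2m 1.30, 1.09 and 0.67. Socs3 had ratios of 0.96, 0.74 and 1.97. Cebpd had 1.46, 1.27 and -0.09, at 20.6 CPM ipsilaterally and 22.3 CPM contralaterally in the highest tertile, and Junb 1.02, 0.81 and 0.28. Apoe was lower ipsilaterally in the lowest tertile, at 142 CPM and 202 CPM (-0.49), and higher in the middle and highest tertiles, with ratios of 1.02 and 1.23. The lowest tertile held 29 of the 32 ipsilateral and all 37 contralateral barcodes with precursor RNA. H2-D1, B2m, Socs3 and Junb were thus higher ipsilaterally in each tertile, while Cebpd and Apoe were not. H2-K1, Ifi27, Ifi27l2a, Mt2 and Gstp1 were also higher ipsilaterally in each tertile.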

How the data were processed

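The deposited values are UMI counts per gene and barcode; per the submitters' processing notes the authors made these counts with Cell Ranger 3.1.0 on mm10. What annotation and alignment options they chose was not given in the sources used here. There are 4841 barcodes and 31053 genes in the matrices.

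Counts were summed over the chosen barcodes of each library and scaled to CPM; log2 ratios add 5 CPM to both sides, which draws low genes toward 0. With 1 library a side no test was made. Named genes are the 12 largest and 12 smallest ratios among genes with at least 20 CPM in a library, leaving out mitochondrial, ribosomal, predicted and clone-named genes, up to 4 per list by size of ratio, and a fixed set that includes Apoe and Opalin; Il6st, Jak1, Stat3, Xist, Pdgfra and Bmp4 were added after their values were seen. The members and lists were chosen with earlier results of these data known. The steps were tested on simulated counts. Shares expected over all thinnings are exact hypergeometric values. Doublets were kept; Scrublet ran in scanpy 1.11.5 as an alternative. Shared sequence was counted as 31-base words that GENCODE transcripts of another gene also hold. Python 3.11.15, numpy 2.4.6, scipy 1.17.1 and pandas 2.3.3 were used. Some genes that the naming rule chose are not reported here.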

Additional observations from a re-analysis of the deposited data

How the results depend on the processing

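No paired analysis was possible because each side is 1 library. All 17 named genes at least 1.5-fold higher kept a ratio above 0 under every alternative run, and 10 stayed past 1.5-fold in all of them. Of the 28 lower ones 19 stayed below 0 throughout and 3 past 1.5-fold.

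The counts of 27 higher and 120 lower genes depended on the settings. With 1 CPM added they were 81 and 389, and with 20 CPM added 13 and 21. Applying the rule after thinning to 10000 UMIs, which admits barcodes whose few excluded UMIs were lost and gives 614 ipsilateral and 425 contralateral barcodes, gave 46 and 68. Weighting each barcode equally gave 91 higher genes. Lower genes were 328 without Scrublet calls, 49 at the same mix of late mature tertiles, and 23 without barcodes with precursor RNA, a setting chosen after seeing the data. Without the barcodes with Xist, also chosen after seeing the data, 26 were higher and 119 lower.

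The precursor markers, at a median of -0.72, were -0.51 with 20 CPM added, -2.09 without Scrublet calls (which removed 20 ipsilateral and 2 contralateral barcodes with precursor RNA), -0.49 after thinning, -0.46 with equal weights, -0.48 at the same mix of tertiles and 0.15 without barcodes with precursor RNA, which were left out for these markers. The newly formed stage was -0.035 with equal weights and 0.0503 without those barcodes; the late mature stage was 0.0010 at the same mix and 0.0054 without them; immediate early genes were 0.35 after thinning. Without barcodes with precursor RNA the ratios of Bcan (0.062), Bmp4 (0.22), Frmd4a (0.065), Gpr17 (0.074), Gria2 (0.19), Itpr2 (0.073), Marcks (0.28), Pdgfra (0.24) and Serpine2 (0.30) were above 0. Over all alternatives H2-D1 ranged over 0.99 to 1.68, Socs3 over 0.85 to 1.42 and Ifi27l2a over 0.77 to 2.24. The difference in the share of mature barcodes, -10.8 percentage points (-15.9 to -5.75), lay within that interval in the 9 alternatives that gave one. Genes under 50 UMIs were too shallow to compare.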

Other observations

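Xist, the RNA of the inactive X chromosome, was found in a few of the chosen barcodes although the label gives male animals. It had 23 UMIs in the ipsilateral and 183 UMIs in the contralateral barcodes, with at least 2 UMIs in 2 ipsilateral and 7 contralateral barcodes. Of these, 1 ipsilateral and 5 contralateral barcodes had no UMI of a Y-linked gene, while 91.6% of ipsilateral and 95.1% of contralateral barcodes had one. Over all filtered barcodes, 6 ipsilateral and 13 contralateral ones had at least 2 Xist UMIs.

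Just under 1.5-fold lay Cdkn1c, a cell cycle inhibitor on the late mature list, which was 76.0 CPM ipsilaterally and 49.1 CPM contralaterally (0.58), and Klf2, an immediate early transcription factor, at 84.1 CPM and 55.5 CPM (0.56).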
